A study of Mus musculus with 5 samples.

Results

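The transcripts of 51 splicing factor genes were followed in mouse hematopoietic stem cells (HSCs) with and without deletion of floxed Syncrip. The genes were taken by name, as all rows of the expression table that begin with Hnrnp, Srsf, Snrp, Sf3a or Sf3b except Hnrnpr, and they were 51 of the 24046 genes listed. They fell into 4 families, with 19 hnRNP genes, 11 genes of SR proteins, 12 genes of Sm and U snRNP proteins and 9 genes of the SF3 complex. The WT group had 3 libraries (WT 1, WT 2 and WT 3) from Syncrip flox/flox marrow that carried no Cre, and the KO group had 2 libraries (KO 2 and KO 3) from Syncrip flox/flox marrow with Mx1 Cre+. Both groups were donor marrow in CD45.1 congenic recipients, both received polyinosinic:polycytidylic acid (pIpC), and both were harvested 9 weeks after transplantation and 3 weeks after pIpC. Per the study's methods, donors and recipients were 6 to 8 weeks old. The sorted cells were CD45.2+, Lin-, Sca1+, cKit+, CD150+ and CD48-. Mx1-Cre acts in every cell that responds to interferon, not in HSCs alone, and because the WT marrow lacked Cre, effects of Cre and of the deletion cannot be told apart. The study's methods speak of biological replicates for its experiments in general, but the labels do not tie the libraries to separate mice, so p-values measure the spread between these libraries, which may be technical.

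Splicing removes introns from precursor mRNA, and it is carried out by the spliceosome, a machine built from small nuclear ribonucleoproteins (snRNPs). Each U snRNP of the major spliceosome, apart from U6, has a ring of Sm proteins around its RNA, while U1 and U2 carry further proteins that help them recognise the 5′ splice site and the branch point. The SF3A and SF3B complexes are parts of U2 snRNP that hold it at the branch point. SR proteins bind exons and mostly favour their inclusion, and heterogeneous nuclear ribonucleoproteins (hnRNPs) coat nascent transcripts and often act in the opposite sense. SYNCRIP is itself an hnRNP, also called hnRNP Q. Many SR and hnRNP genes adjust their own mRNA levels through alternative exons that expose the transcript to decay.

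The hnRNP A/B genes illustrate how differently these genes are written. Hnrnpa0 and Hnrnpa3 had the highest and the lowest log2 fold change among the hnRNP genes, and both encode proteins with paired RNA recognition motifs. The stretches below are coding sequence of the first RNA recognition motif, 72 bases each, read 5′ to 3′ on the coding strand from GENCODE M21 transcripts (GRCm38). Capitals mark the 24 bases that encode the RNP1 motif, the segment that contacts RNA.
Hnrnpa0: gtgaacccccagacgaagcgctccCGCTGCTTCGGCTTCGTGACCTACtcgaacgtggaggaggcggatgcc
Hnrnpa1: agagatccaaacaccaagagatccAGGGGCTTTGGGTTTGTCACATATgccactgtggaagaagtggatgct
Hnrnpa2b1: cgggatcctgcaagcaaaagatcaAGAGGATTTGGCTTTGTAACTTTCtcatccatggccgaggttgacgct
Hnrnpa3: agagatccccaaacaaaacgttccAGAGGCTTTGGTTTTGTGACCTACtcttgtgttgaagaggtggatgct
These are bases 118 to 189 of the Hnrnpa0 coding sequence, 139 to 210 of Hnrnpa1, 160 to 231 of Hnrnpa2b1 and 136 to 207 of Hnrnpa3. The Hnrnpa0 stretch had 65.3% G or C bases, against 48.6% in Hnrnpa1, 48.6% in Hnrnpa2b1 and 45.8% in Hnrnpa3. Of its 72 bases, 44 were identical in Hnrnpa1, 39 in Hnrnpa2b1 and 49 in Hnrnpa3. Over the whole coding sequence the third base of the codon was G or C in 93.8% of Hnrnpa0 codons, 42.4% of Hnrnpa1 codons, 32.3% of Hnrnpa2b1 codons and 28.9% of Hnrnpa3 codons. Hnrnpa0 lies at chr13:58125879-58128556 on the minus strand and has 1 exon. Hnrnpa1 lies at chr15:103240432-103246692 on the plus strand with 11 exons, Hnrnpa2b1 at chr6:51460932-51469894 on the minus strand with 12 exons and Hnrnpa3 at chr2:75659261-75669407 on the plus strand with 11 exons.

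Library depth ranged from 12539599 to 22779536 reads, with KO 2 and KO 3 the least deep. Syncrip had normalised read counts of 1944, 1439.8 and 1794 in the libraries WT 1, WT 2 and WT 3, and 294 and 343 in KO 2 and KO 3, a log2 fold change of -2.43 (SE 0.22, adjusted p = 0.0352 by limma). The 8 markers of the HSC gate summed to between 11128 and 20179 normalised reads per library. The 11 markers of cells outside the gate, mainly S100a8 and S100a9 of neutrophils, took 0.757% to 1.4% of WT reads, 0.763% of KO 2 and 0.211% of KO 3, while of the T cell markers Cd3e and Cd8a were near 0 in every library and Cd4 was at 57.6 normalised reads in KO 2, against 0 to 17.1 in the others. All 14 adipocyte markers were highest in KO 2, where they summed to 32416 normalised reads, against 220.2 to 754 in the other libraries, and Ucp1, Cidea and Cidec were at 0 in all WT libraries and in KO 3. The part of these other cells, and of depth, in the results was not tested. In bulk RNA, fewer cells of a type and less RNA per cell cannot be told apart.

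To ask whether loss of SYNCRIP was accompanied by different levels of the splicing machinery, KO was compared with WT gene by gene. Of the 51 members, 50 had a normalised read count of at least 10 in at least 2 libraries and were tested. Snrpn, which encodes the Sm protein N and is mainly neuronal, did not, with 1.67, 7.81 and 0 in the WT libraries and 37 and 6.07 in KO 2 and KO 3. limma called no member at an adjusted p under 0.05, and the lowest member value was 0.0815. At an unadjusted p under 0.05 there were 21 members, 42.0% of those tested, and edgeR's quasi-likelihood test also called no member, with 21 at an unadjusted p under 0.05. Over all 13661 genes tested, limma called 1 gene (0.00732%), Syncrip itself, and 27.8% of genes had an unadjusted p under 0.05. Of the same genes, edgeR called 2, with 3715 at an unadjusted p under 0.05. With the limit raised to an adjusted p of 0.1, 8 members were higher in KO and 4 were lower, beside 4.76% and 6.47% of all genes. DESeq2, run on the recovered reads, gave an adjusted p under 0.05 to 9 members that were higher and 6 that were lower, out of 49 with an adjusted p. The background of DESeq2 was 9.27% of genes higher and 9.46% lower. At 2-fold or more, DESeq2 called Hnrnpa0 and Sf3b5 higher and no member lower, where 4.11% of all genes were called higher and 4.61% lower.

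The direction was mixed. The log2 fold change was above 0 for 27 members and below 0 for 23, with a median of 0.05, and the median over all genes tested was 0.02. In 16 members both KO values lay above all WT values, and in 14 both lay below, while the groups overlapped in 20. Over all genes tested, 23.9% lay above and 23.2% lay below. Thus 60% of members and 47.1% of all genes had KO values beyond the WT range.

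**Figure D1:**
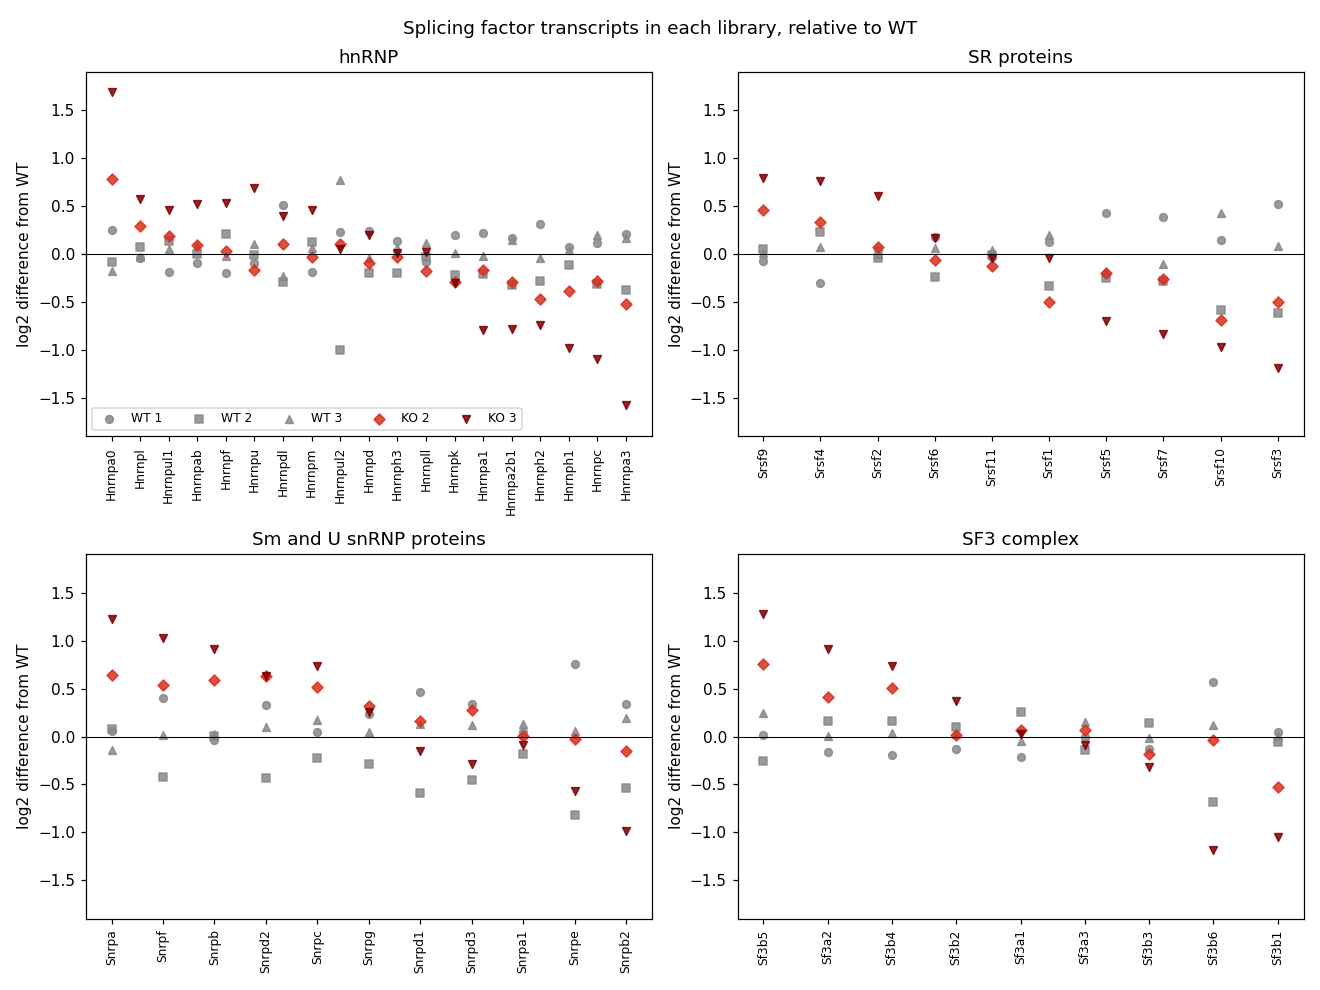
Log2 difference of each tested member from WT in every library, by family, with genes ordered by log2 fold change. KO libraries are plotted against the mean of the 3 WT libraries and each WT library against the mean of the other 2, and Srsf12, which is near 0 reads, is left out. The KO points of Hnrnpa0, Snrpa and Sf3b5 lie above all WT points, and those of Hnrnpa3 and Sf3b1 lie below them.

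Among the hnRNP genes, 10 of 19 had a log2 fold change above 0 and 9 below, with a median of 0.05. Both KO values were above all WT values for 4 of them and below for 7, beside 23.9% and 23.2% of all genes tested. No hnRNP gene passed limma's test. DESeq2 called 1 higher and 3 lower, together 21.1% of them, beside 18.7% of all genes.

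Hnrnpa0, an RNA-binding protein of the A/B group known for binding AU-rich elements, had normalised read counts of 777, 665 and 638 in the libraries WT 1, WT 2 and WT 3, and 1189 and 2225 in KO 2 and KO 3. The KO libraries were both above WT, and KO 3 was the higher of them. The log2 fold change was 1.24 (SE 0.28, adjusted p = 0.0815 by limma), and DESeq2's adjusted p was 0.00131. The other 3 genes of the A/B group had KO values below all WT values. Hnrnpa3, a close paralog, had 1786, 1363 and 1757 in the libraries WT 1, WT 2 and WT 3, and 1129.7 and 544 in KO 2 and KO 3. Its log2 fold change was -1.05 (SE 0.31, adjusted p = 0.093 by limma). The ratio of Hnrnpa0 to Hnrnpa3 normalised reads was 0.435, 0.488 and 0.363 in the WT libraries, 1.05 in KO 2 and 4.09 in KO 3. Hnrnpa2b1, a highly abundant A/B protein, had 24248, 19335 and 23933 in the WT libraries and 18300.5 and 13058 in KO 2 and KO 3, a log2 fold change of -0.53 (SE 0.21, adjusted p = 0.149 by limma). Hnrnpa1, a repressor of exon inclusion, had 4168, 3419 and 3724 in the WT libraries and 3347 and 2175 in KO 2 and KO 3, and its value was -0.48 (SE 0.22, adjusted p = 0.194 by limma). Hnrnpa1 and Hnrnpa3 have processed copies elsewhere in the genome that could share reads, so their counts are uncertain to that extent.

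Hnrnpc, which binds uridine tracts and shields them from aberrant exon use, had 7403, 6083 and 7712 in the libraries WT 1, WT 2 and WT 3, and 5781 and 3293 in KO 2 and KO 3, a log2 fold change of -0.69 (SE 0.25, adjusted p = 0.127 by limma). Hnrnph1, which binds runs of G, had 3824, 3495 and 3759 in the libraries WT 1, WT 2 and WT 3, and 2825 and 1869.5 in KO 2 and KO 3. Both KO values were below WT, and its log2 fold change was -0.68 (SE 0.21, adjusted p = 0.0974 by limma). Its relative Hnrnph2 had 2784, 2120.2 and 2368 in the WT libraries and 1737 and 1439.7 in KO 2 and KO 3, a log2 fold change of -0.61 (SE 0.20, adjusted p = 0.105 by limma), which was 0.05 once transcript length and GC trends were removed and -0.20 with the coding trend removed. The other F/H genes had log2 fold changes of 0.28 for Hnrnpf and -0.01 for Hnrnph3, and in both the groups overlapped.

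The hnRNP genes next to Hnrnpa0 in the order were Hnrnpl and Hnrnpul1. Hnrnpl, a CA-repeat binding regulator of splicing, had 6996, 7354 and 7009 in the libraries WT 1, WT 2 and WT 3, and 8746 and 10573 in KO 2 and KO 3, and its log2 fold change was 0.43 (SE 0.17, adjusted p = 0.142 by limma). Hnrnpul1, a relative of the scaffold protein hnRNP U, had 4813, 5592 and 5398 in the WT libraries and 6008 and 7243 in KO 2 and KO 3, a log2 fold change of 0.33 (SE 0.17, adjusted p = 0.248 by limma). Hnrnpab was also above WT in both KO libraries, with a log2 fold change of 0.31. Hnrnpu, the hnRNP with the most reads, had 28840.3, 29912 and 31554 in the libraries WT 1, WT 2 and WT 3, and 26877 and 48363 in KO 2 and KO 3. The KO libraries lay on opposite sides of the WT range, and the log2 fold change of 0.26 (SE 0.26, adjusted p = 0.525 by limma) came from KO 3 alone, since it was -0.16 without that library.

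Of the 11 SR protein genes, 5 had a log2 fold change above 0 and 6 below, with a median of -0.08. Both KO values were above WT for 3 and below WT for 5. None passed limma's test, and DESeq2 called Srsf9 higher and Srsf3 and Srsf10 lower.

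Srsf9 is a short SR protein with a reduced RS domain. Its normalised read counts were 3474, 3682 and 3604 in the libraries WT 1, WT 2 and WT 3, and 4928 and 6231 in KO 2 and KO 3, with the WT libraries close together and both KO libraries above them. The log2 fold change was 0.63 (SE 0.17, adjusted p = 0.0879 by limma). Srsf4, a long SR protein, had 3512, 4499 and 4177 in the libraries WT 1, WT 2 and WT 3, and 5108 and 6840.2 in KO 2 and KO 3, a log2 fold change of 0.55 (SE 0.20, adjusted p = 0.126 by limma). Srsf2, which had the most reads of the family and is a recurrent site of mutation in myeloid neoplasms, had 17666, 17005 and 17309 in the libraries WT 1, WT 2 and WT 3, and 18217 and 26312 in KO 2 and KO 3. KO 2 was just above WT and KO 3 well above it, and the log2 fold change was 0.34 (SE 0.20, adjusted p = 0.297 by limma).

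Srsf3, the smallest SR protein and a link between splicing and mRNA export, had 7956, 4718 and 6521 in the libraries WT 1, WT 2 and WT 3, and 4439.7 and 2739.7 in KO 2 and KO 3. WT 2 and KO 2 were close to each other, and the log2 fold change was -0.84 (SE 0.28, adjusted p = 0.108 by limma). Srsf10, which acts as a splicing repressor when dephosphorylated, had 2669.8, 1904 and 3031 in the libraries WT 1, WT 2 and WT 3, and 1543 and 1274 in KO 2 and KO 3, and its value was -0.83 (SE 0.23, adjusted p = 0.0891 by limma). Srsf7, which like Srsf3 takes part in mRNA export, had 9989, 7334 and 7988 in the WT libraries and 6975 and 4687 in KO 2 and KO 3, a log2 fold change of -0.55 (SE 0.22, adjusted p = 0.159 by limma). Srsf5 was below WT in both KO libraries too, at -0.44. Srsf1, the founding SR protein, had 8477, 6846 and 8749 in the WT libraries and 5642 and 7785 in KO 2 and KO 3, and the groups overlapped, with a log2 fold change of -0.27 (SE 0.20, adjusted p = 0.414 by limma). Srsf11 and Srsf6 were close to 0, at -0.08 and 0.05. Srsf12 had the highest fitted value of the family, 2.01 (SE 1.70, adjusted p = 0.459 by limma), but it rested on normalised read counts of 17.5, 0 and 0 in the WT libraries and 4.11 and 21.3 in KO 2 and KO 3, and 2 WT libraries had no read.

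**Figure D2:**
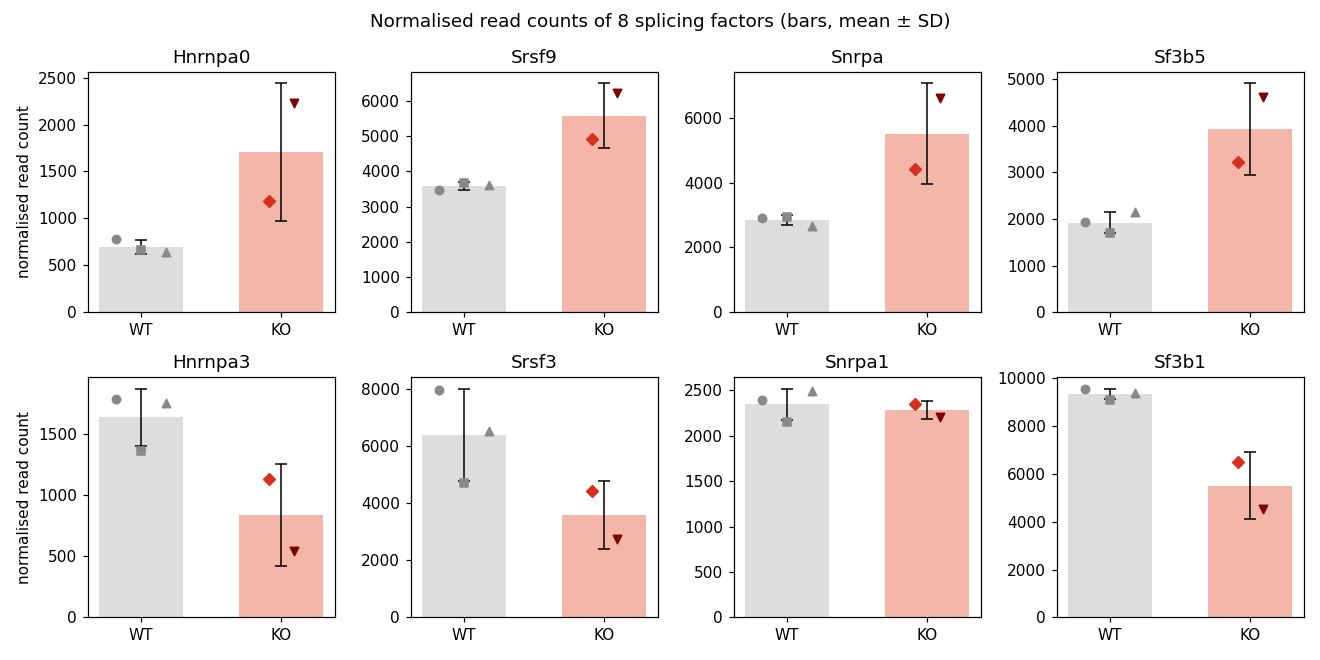
Normalised read counts of 8 members, the top row higher in KO and the bottom row lower or alike, with bars for the mean, error bars for the SD (3 WT and 2 KO libraries) and points for single libraries. Circles, squares and upward triangles are WT 1, WT 2 and WT 3, and diamonds and downward triangles are KO 2 and KO 3. KO 3 lies farther from WT than KO 2 in all 8 genes.

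The Sm and U snRNP family was the one with the highest median. Of its 11 tested genes, 7 had a log2 fold change above 0 and 4 below, with a median of 0.29. Both KO values lay above all WT values in 6 genes and below in none, beside 23.9% and 23.2% of all genes tested. limma called none of the family, and DESeq2 called Snrpa, Snrpb, Snrpc and Snrpf higher and no gene lower. These calls were 36.4% of the tested genes of the family, beside 18.7% of all genes.

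Snrpa and Snrpc encode the proteins A and C of U1 snRNP. Snrpa had 2915, 2945 and 2660.0 in the libraries WT 1, WT 2 and WT 3, and 4419 and 6611 in KO 2 and KO 3, so both KO values were above WT. Its log2 fold change was 0.93 (SE 0.21, adjusted p = 0.0815 by limma). Snrpc had 1002, 884 and 1057 in the libraries WT 1, WT 2 and WT 3, and 1397 and 1627 in KO 2 and KO 3, a log2 fold change of 0.62 (SE 0.19, adjusted p = 0.101 by limma). The U2 proteins were different in sign. Snrpa1, the U2 protein A′, had 2398, 2153 and 2488 in the libraries WT 1, WT 2 and WT 3, and 2349 and 2209.7 in KO 2 and KO 3, and the groups overlapped at a log2 fold change of -0.04 (SE 0.17, adjusted p = 0.894 by limma). Snrpb2, the U2 protein B″ and the lowest of the family, had 883, 588 and 824 in the WT libraries and 680.5 and 381 in KO 2 and KO 3, with KO 2 inside the WT range and a log2 fold change of -0.56 (SE 0.31, adjusted p = 0.263 by limma). The ratio of Snrpa to Snrpa1 was 1.22, 1.37 and 1.07 in the WT libraries, 1.88 in KO 2 and 2.99 in KO 3.

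The Sm ring has 7 positions, and 7 of the 8 Sm genes were tested. Snrpb, which encodes Sm B and B′ and had the most reads of the family, had 8731, 8911 and 8993 in the libraries WT 1, WT 2 and WT 3, and 13309 and 16678 in KO 2 and KO 3, a log2 fold change of 0.75 (SE 0.17, adjusted p = 0.0815 by limma). Snrpf had 1259.6, 861 and 1056 in the libraries WT 1, WT 2 and WT 3, and 1521 and 2137 in KO 2 and KO 3, and both KO libraries were above WT, with a log2 fold change of 0.78 (SE 0.24, adjusted p = 0.0974 by limma). Snrpd2 was likewise above WT in both KO libraries, with 887, 622 and 798 in the WT libraries and 1177 and 1177 in KO 2 and KO 3 and a log2 fold change of 0.63 (SE 0.22, adjusted p = 0.12 by limma). Snrpg was above WT by less, at 0.29. Snrpe had 1933, 936 and 1402 in the WT libraries and 1335 and 917 in KO 2 and KO 3, and the groups overlapped at -0.30 (SE 0.32, adjusted p = 0.552 by limma). Snrpd1 and Snrpd3 overlapped as well, at 0.00 and -0.01. Of the 7 tested Sm genes, 4 had KO values above all WT values, beside 23.9% of all genes tested, and in 3 the groups overlapped.

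In the SF3 complex, 5 of 9 genes had a log2 fold change above 0 and 4 below, with a median of 0.05. Both KO values were above WT for 3 genes and below for 2, beside 23.9% and 23.2% of all genes tested. No gene passed limma's test, and DESeq2 called Sf3a2, Sf3b4 and Sf3b5 higher and Sf3b1 lower. These calls were 44.4% of the family, beside 18.7% of all genes.

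Sf3b5, a small subunit of SF3B, had normalised read counts of 1925, 1698 and 2139 in the libraries WT 1, WT 2 and WT 3, and 3226 and 4618 in KO 2 and KO 3. The KO libraries were both above WT, at a log2 fold change of 1.01 (SE 0.21, adjusted p = 0.0815 by limma), and DESeq2's adjusted p was 0.000861. Sf3b1, the large scaffold that grips the branch point and is recurrently mutated in myelodysplasia, had 9556, 9109 and 9392 in the libraries WT 1, WT 2 and WT 3, and 6513 and 4523 in KO 2 and KO 3. The WT values were close together, both KO values were below them, and the log2 fold change was -0.78 (SE 0.19, adjusted p = 0.0818 by limma). The ratio of Sf3b5 to Sf3b1 was 0.201, 0.186 and 0.228 in the WT libraries, 0.495 in KO 2 and 1.02 in KO 3. Sf3b4, which crosslinks to the RNA beside the branch point, had 2249, 2652 and 2502 in the WT libraries and 3497 and 4097 in KO 2 and KO 3, a log2 fold change of 0.62 (SE 0.18, adjusted p = 0.0891 by limma). Sf3b6, which contacts the branch point adenosine, had 2669, 1498 and 2172 in the WT libraries and 2000.4 and 904 in KO 2 and KO 3, and the groups overlapped at -0.61 (SE 0.36, adjusted p = 0.29 by limma). Sf3b3, a scaffold partner of SF3B1, had 7811, 8855 and 8216 in the WT libraries and 7325 and 6661 in KO 2 and KO 3, below WT in both KO libraries by less, with a log2 fold change of -0.25 (SE 0.16, adjusted p = 0.347 by limma). Sf3b2, with the most reads of the family, had 10062, 11190.5 and 10776 in the WT libraries and 10796 and 13811 in KO 2 and KO 3 and overlapped, with a log2 fold change of 0.20 (SE 0.18, adjusted p = 0.495 by limma).

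SF3A had 1 gene above WT in both KO libraries and 2 that overlapped. Sf3a2 had 2766, 3201 and 2979 in the libraries WT 1, WT 2 and WT 3, and 3963 and 5587 in KO 2 and KO 3, a log2 fold change of 0.66 (SE 0.20, adjusted p = 0.0941 by limma). Sf3a1 and Sf3a3 were at 0.05 and -0.01. Thus subunits of one complex had log2 fold changes of either sign, over a range from -0.78 to 1.01. With the trend on coding length and coding GC removed the range was -0.16 to 0.34, and Sf3b4 was at 0.05 and Sf3a2 at -0.09. With transcript length and GC removed instead, the range ran from -0.24 for Sf3a2 to 1.34 for Sf3b5.

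Levels in WT were compared per kb of the representative transcript. Hnrnpa2b1 was highest, at 13024 normalised reads per kb, followed by Hnrnpab at 9343, Srsf2 at 9124 and Snrpb at 7647. Of the genes with the largest differences, Sf3b5 was at 500.0, Hnrnpa3 at 317 and Hnrnpa0 at 259 normalised reads per kb in WT. All members together took between 1.46% and 1.72% of the reads of a library.

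The libraries KO 2 and KO 3 were then set side by side. Their differences from the WT mean had the same sign in 40 of 50 members (80%), against 74.6% of all genes tested, and both use the same WT libraries. KO 3 was farther from WT than KO 2 in 41 of 50 members (82.0%), against 72.5% of all genes. Hnrnpa0 differed from WT by 0.78 on the log2 scale in KO 2 and by 1.69 in KO 3, and Sf3b1 by -0.52 and -1.05. The median difference of the Sm and U snRNP genes was 0.32 in KO 2 and 0.26 in KO 3, which lies within the spread of the WT libraries, at 0.33 in WT 1, -0.42 in WT 2 and 0.10 in WT 3, each against the mean of the other WT libraries. With KO 2 left out, limma called 25 of 50 members, where it called 26.6% of all genes tested. With KO 3 left out it called none of the members, where it called 0.082% of all genes. The lone KO library was then assumed to vary like the others.

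A feature of the sequences that the grouping had not used went with the direction. Log2 fold changes were higher in members whose coding sequence was richer in G and C, with Pearson's r = 0.74 and Spearman's rho = 0.80 across the 50 tested members, which share libraries and are not independent replicates. The same correlation over 12254 tested genes with a coding sequence was r = 0.56 and rho = 0.64, so the members shared it with the rest of the table. Across the members it was r = 0.65 and rho = 0.67 in KO 2 and r = 0.75 and rho = 0.82 in KO 3. Single WT libraries also varied with coding GC when set against the other WT libraries, in either direction, with rho = -0.44 in WT 1, 0.47 in WT 2 and -0.26 in WT 3. Without Srsf12, Pearson's r was -0.46, 0.48 and -0.18 for the WT libraries in the same order, while KO 2 had 0.63 and KO 3 had 0.78. Among the 5 members under 45% coding GC, 4 had a log2 fold change below 0, with a median of -0.56, and among the 16 from 45% to 50%, 14 were below 0, with a median of -0.46. All 7 members at 60% or more were above 0, with a median of 0.75. Across all genes tested, the corresponding medians were -0.76, -0.37 and 0.74. Hnrnpa0 had 71.9% coding GC, Sf3b5 61.6%, Sf3b1 44.4% and Hnrnpa3 45.9%. Snrpf, with 48.8%, and Srsf1, with 58.7%, lay apart from the trend.

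**Figure D3:**
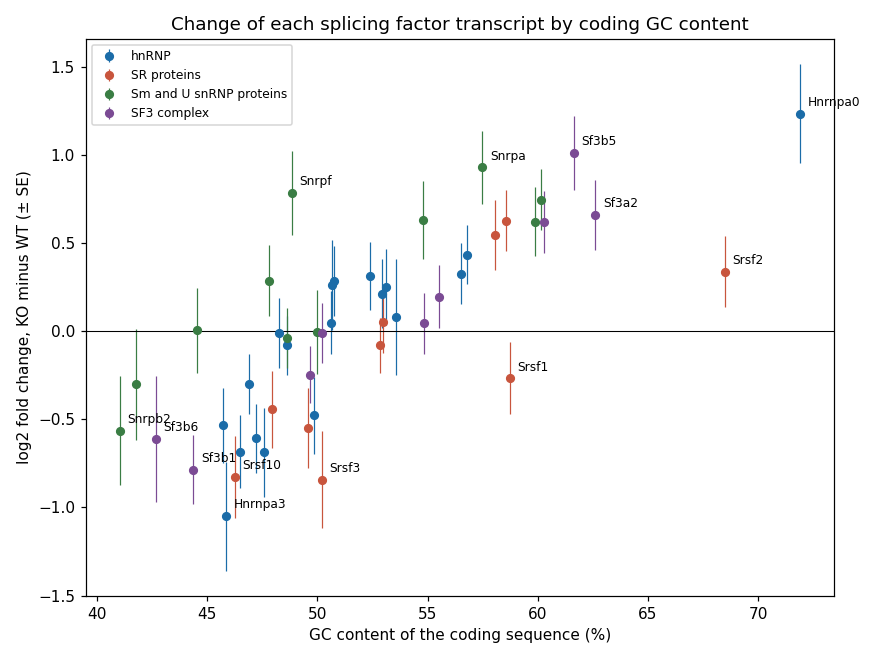
Log2 fold change (KO minus WT, with its SE) of 49 tested members against the GC content of their coding sequence in percent, coloured by family, without Srsf12. Members under 50% coding GC lie mostly below 0 and those above 55% mostly above 0, with Hnrnpa0 at the far right and Srsf1 below the others of its GC content.

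The members highest in KO also included the only members without introns. Hnrnpa0 and Sf3b5 each have 1 exon in their representative transcript, as do 311 tested genes with a coding sequence in all. Those 311 genes had a median log2 fold change of 0.62, against 0.01 for the 11943 genes with 2 or more exons, and both KO values lay above WT in 50.8% and 23.2% of them. Their median coding GC was 62.6%, against 53.0% for the genes with introns.

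Because the trend ran through all genes, the fit was repeated after a linear trend on coding length and coding GC had been removed from each library, an alternative chosen after the data were seen. The log2 fold change of Hnrnpa0 was then -0.21 in place of 1.24, and that of Sf3b5 was 0.34 in place of 1.01. Sf3b1 moved from -0.78 to -0.16, and Hnrnpa3 from -1.05 to -0.54. Hnrnpa2b1 moved from -0.53 to -0.01, Hnrnpc from -0.69 to -0.31 and Hnrnph1 from -0.68 to -0.22. Among the SR genes, Srsf4 moved from 0.55 to 0.14, Srsf9 from 0.63 to 0.18 and Srsf10 from -0.83 to -0.35. The median of single-exon genes was -0.13. With transcript length and transcript GC removed instead, Hnrnpa0 was at 0.84 and Sf3b5 at 1.34, so that the value of both genes depended on which sequence was used. Hnrnpa2b1 was then at -0.05, Hnrnpc at -0.15 and Hnrnph1 at -0.33, with Srsf4 at 0.05, Srsf9 at 0.20 and Srsf10 at -0.195. Of the 50 tested members, 36 kept their sign in the coding fit. No member had an adjusted p under 0.05 in either case, and in the coding fit the lowest was 0.174.

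In this fit all 11 tested genes of the Sm and U snRNP family were above 0, from 0.08 for Snrpc to 1.07 for Snrpf, with a median of 0.47 where all genes had a median of -0.002. Snrpe moved from -0.30 to 0.51, Snrpb2 from -0.56 to 0.31 and Snrpd1 from 0.00 to 0.61. The genes that DESeq2 had called mostly came down, with Snrpb from 0.75 to 0.18, Snrpa from 0.93 to 0.57 and Snrpc from 0.62 to 0.08, while Snrpf went from 0.78 to 1.07. With transcript length and GC removed, 10 of the 11 were above 0, with a median of 0.40. In the SR family 7 of 11 were below 0, with Srsf2 at -0.85, Srsf1 at -0.73 and Srsf3 at -0.66. With transcript length and GC removed the SR family turned the other way, with 8 above 0 and 3 below and a median of 0.20, and Srsf2 was at 0.36, Srsf1 at 0.41 and Srsf3 at -0.09. The hnRNP and SF3 medians were 0.13 and -0.02 with the coding trend removed and 0.23 and -0.13 with the transcript trend removed.

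**Figure D4:**
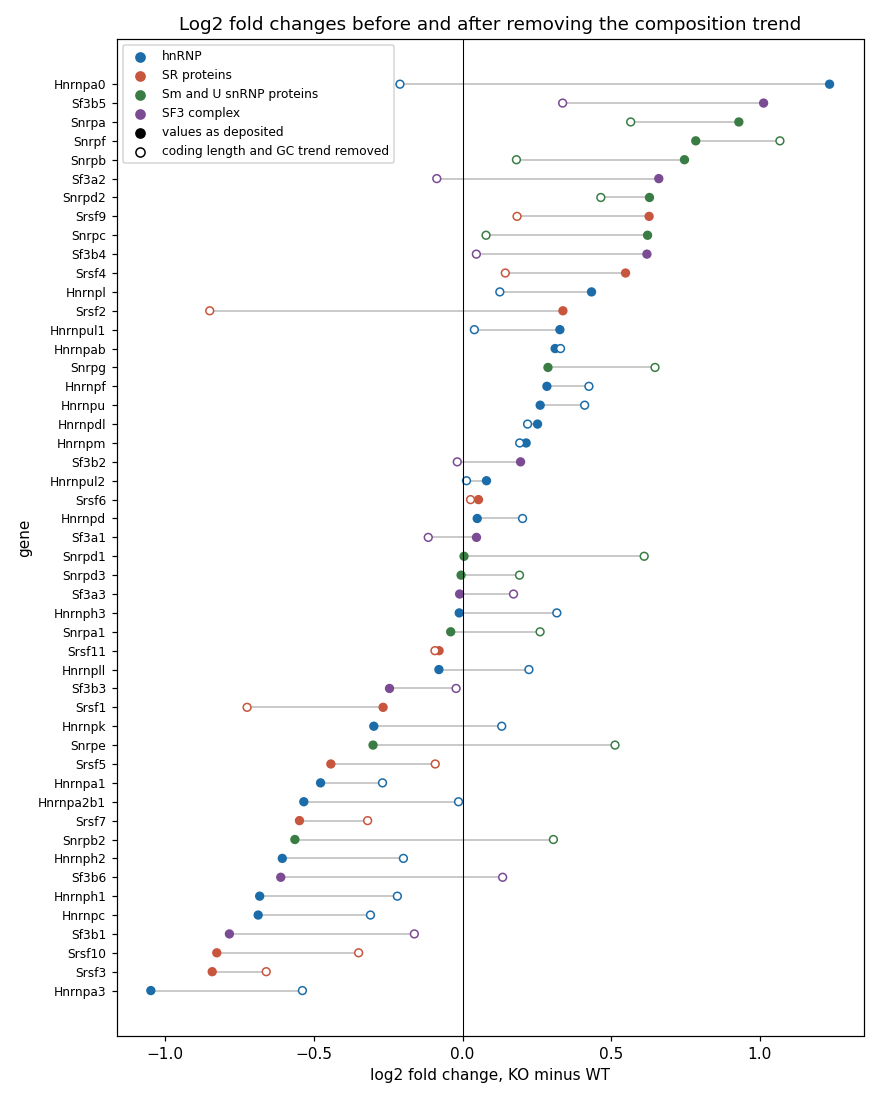
Log2 fold changes (KO minus WT) of 49 tested members, without Srsf12, as deposited (filled) and after removing the trend on coding length and coding GC from each library (open), coloured by family and ordered by the deposited values. The open points of all 11 Sm and U snRNP genes lie above 0, and those of Hnrnpa0, Srsf2 and Sf3a2 cross from above 0 to below it.

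SYNCRIP binds mRNA, and transcripts edited in HSCs by a fusion of SYNCRIP with the deaminase ADAR were listed in the study from separate libraries. The members on that list were Hnrnpa0, Hnrnpa3, Hnrnpc, Hnrnph1, Hnrnpu, Sf3a1, Srsf1, Srsf2, Srsf3, Srsf10 and Srsf11. Of these 11, 4 had a log2 fold change above 0 and 7 below, with a median of -0.27, and both KO values were above WT for 2 and below for 6, beside 23.9% and 23.2% of all genes tested. After removal of the coding trend, 10 of the 11 were below 0, with a median of -0.31, where 6163 of 12254 genes were below 0, and with the transcript trend removed 5 were below 0.

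The other genes of the splicing pathway were described from 5 lists with 131 genes in the table, of which 130 were tested. limma called none of them, and 47 (36.2%, beside 27.8% of all genes) had an unadjusted p under 0.05. edgeR also called none, with 43 at an unadjusted p under 0.05, beside 3715 of the 13661 genes tested. DESeq2 called 9 higher and 16 lower, together 19.2% of them, where it called 9.27% of all genes higher and 9.46% lower. The median log2 fold change was -0.10, with 61 genes above 0 and 69 below.

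Of 35 other snRNP proteins, 20 were above 0 and 15 below, and DESeq2 called 5 higher and 1 lower. The highest were Lsm4, a subunit of the ring on U6, at 0.96 (SE 0.20, adjusted p = 0.0815 by limma), with 3395, 2992 and 3278 in the WT libraries and 5223 and 7495 in KO 2 and KO 3, and Sart1, a tri-snRNP protein, at 0.68 (SE 0.22, adjusted p = 0.104 by limma). The lowest were Lsm8, the subunit that marks the nuclear ring, at -1.14 (SE 0.27, adjusted p = 0.0816 by limma), with 1053, 712 and 881 in the WT libraries and 477 and 327 in KO 2 and KO 3, and Ppih, a tri-snRNP cyclophilin, at -0.72. Lsm4 and Lsm8 belong to the same nuclear ring and had opposite signs. Of 15 U2AF and branch point factors, 11 were above 0 and 4 below, with 1 called higher by DESeq2. Puf60, a U2AF-related factor, was at 0.59 and Cherp at 0.58, while Dnajc8 was at -0.51 and Zrsr1, a U2AF1-like gene, at -0.45.

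The 24 genes of the PRP19 complex and the splicing helicases were even, with 12 above 0 and 12 below, and DESeq2 called 3 lower. Xab2 and Ppil1 were highest, at 0.43 and 0.42, and Cdc40, a second-step factor, and Dhx15, the helicase that takes the spliceosome apart, were lowest, at -0.76 and -0.67. Of 25 SR-like factors and SR kinases, 5 were above 0 and 20 below, with a median of -0.38, and DESeq2 called 1 higher and 5 lower. The lowest were the kinases of SR proteins Clk4, with 1551, 1185 and 1263 in the WT libraries and 874 and 322 in KO 2 and KO 3 and a log2 fold change of -1.32 (SE 0.38, adjusted p = 0.0911 by limma), and Clk1, with 2279, 1343 and 1758 in the WT libraries and 1301 and 466 in KO 2 and KO 3 and -1.17 (SE 0.41, adjusted p = 0.119 by limma). Scaf1 and Prpf40b were highest, at 0.70 and 0.64. After removal of the coding trend the median of the SR-like list was -0.10 and Clk4 was at -0.61.

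Of 31 other splicing regulators that were tested, 13 were above 0 and 18 below, and DESeq2 called 2 higher and 7 lower. Mbnl3, a muscleblind protein, was lowest, with normalised read counts of 1745, 1596 and 2190.4 in the libraries WT 1, WT 2 and WT 3, and 854 and 383 in KO 2 and KO 3. Both KO libraries were below WT, and the log2 fold change was -1.67 (SE 0.33, adjusted p = 0.0815 by limma), with -1.52 after removal of the coding trend. Ptbp2, the neuronal relative of the polypyrimidine tract binding protein, was at -1.16 (SE 0.32, adjusted p = 0.0879 by limma). Cirbp, a cold-inducible RNA-binding protein, and Pcbp1, a poly(C)-binding protein, were highest, at 0.83 and 0.73.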

How the data were processed

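Bulk RNA-seq libraries (SMART-Seq v4 Ultra Low Input) of sorted HSCs were analysed from 3 WT and 2 KO samples. The table the authors deposited holds signal values for 24046 genes, each a read count divided by a library size factor. The submitters' processing notes name STAR, featureCounts, DESeq2 and mm10. Whether strand was used in counting was not given in the sources used here. Dividing by the smallest step of each column gave whole reads for 100% of values, within 0.1 reads. The authors' own comparison, with log2 fold changes and p-values, was not used.

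The 13661 genes that reached a value of 10 in 2 or more libraries were tested with limma (version 3.58.1, R 4.3.3, lmFit and eBayes with a trend) on log2(value + 1), Benjamini-Hochberg adjusted over all genes. Fold changes are on that scale, which understates most changes of low genes and can overstate them where libraries have no read (Srsf12, 2.01 against 1.11 by DESeq2). edgeR (version 4.0.16) and DESeq2 (version 1.42.0) were run on the recovered reads. Alternatives covered pseudocount, filter, scaling, variance model, tool, replicate block, removal of each library and trends on length and GC content. Length, GC content, exons and coordinates came from the longest protein-coding GENCODE M21 transcript of each symbol, matched for 95.3% of tested genes and all 51 members. The limma step was tested on simulated data with 200 of 13661 genes changed 4-fold in the same design, and it recovered 153 or more in each of 3 sets. The simulated counts had the same dispersion for every gene and no trend on GC content. The recovery therefore does not give the power to detect the smaller changes of most members.

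The members, lists and tests were chosen with earlier results of these data known. Named genes are Syncrip, the 3 highest and 3 lowest fold changes of each family, members called by limma or by DESeq2 at 2-fold, members on the study's list of edited transcripts, the member with the most reads of each family, untested members, and the 2 highest and 2 lowest genes of each pathway list. Other members are named to complete a complex or group.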

Additional observations from a re-analysis of the deposited data

How the results depend on the processing

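The number of members called by limma was 0, with 12 at an adjusted p under 0.1 and 15 with DESeq2, and over the libraries left out it ranged from 0 to 25, the highest without KO 2, where 26.6% of all genes were called. For the pathway genes the number was 0, with 18 at an adjusted p under 0.1, 25 with DESeq2 and 0 to 46 over the libraries left out, again highest without KO 2. Members beyond all WT values numbered 30 (60%, beside 47.1% of all genes), and 26 to 41 over the alternatives run. The highest counts came from leaving a library out, where fewer values have to separate and the condition is easier to meet. The share of all genes in these alternatives is not given here. Syncrip kept its direction in all 18 alternatives and lost its call (at -2.43, unless given) with all genes above 0 (adjusted p = 0.0503), without a trend (0.0968), with array weights (-2.42, 0.0594), with the length and GC trend removed (-1.49, 0.183), with the coding trend removed (-1.74, 0.118) and without any 1 WT library (over all libraries left out -2.55 to -2.32). The coding trend was added after the data were seen, and the cause of these changes was not tested.

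With the length and GC trend removed, 3 of the 4 family medians and that of the pathway genes moved beyond the spread of the WT libraries, to 0.23 for hnRNP, 0.20 for SR proteins, -0.13 for SF3 and -0.026 for pathway genes, the last at 0.034 with the coding trend removed, while the Sm and U snRNP median (0.40) stayed within it. Over the libraries left out they ranged from -0.10 to 0.13 for hnRNP, -0.16 (without KO 3 or WT 1) to -0.035 (without KO 2) for SR proteins, 0.19 (without WT 2) to 0.37 (without WT 1) for Sm and U snRNP proteins, -0.012 to 0.13 for SF3 and -0.12 to -0.048 for pathway genes. The moves beyond that spread were hnRNP without WT 2 (-0.078) and without KO 3 (-0.097), both opposite in sign to 0.05, SF3 without WT 2 (0.13) and pathway genes without KO 3 (-0.048).

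Of 30 named members tested, 17 kept their sign in all alternatives in which they were tested. With the length and GC trend removed the sign turned for Srsf7 (0.087), Snrpb2 (0.25), Snrpe (0.35), Sf3a2 (-0.24), Sf3b2 (-0.13), Srsf1 (0.41) and Srsf11 (0.29). With the coding trend removed it turned for Hnrnpa0 (-0.21), Srsf2 (-0.85), Snrpb2 (0.31), Snrpe (0.51), Snrpa1 (0.26), Sf3a2 (-0.087), Sf3b6 (0.13), Sf3b2 (-0.018) and Sf3a1 (-0.12). Sf3a1 also turned with quantile normalization (-0.012), and without WT 1 (-0.025). Hnrnpu turned without KO 3 (-0.16, where the other libraries left out gave up to 0.69), and Snrpa1 without WT 3 or KO 3 (0.0036 and 0.0041).

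The replicate number as a block called no member and no pathway gene, and turned the sign of Sf3a1 (-0.025). The deviations of same-numbered libraries from their group means had r = -0.06 for number 2 and -0.18 for number 3. With 2 KO libraries the KO deviations mirror each other, so these values cannot show whether same-numbered libraries were paired. Snrpn and Srsf12 had few reads, at most 36 and 21 in a library, and the part of depth in this was not tested.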
